A study of Mus musculus with 5 samples.

Results

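A group of 10 genes of heparan sulfate proteoglycans were followed across the cell classes and the groups: the glypican core proteins Gpc3, Gpc4, Gpc5 and Gpc6, the N-deacetylase and N-sulfotransferase Ndst4, and the 3-O-sulfotransferases Hs3st1, Hs3st2, Hs3st3b1, Hs3st4 and Hs3st5. They were taken by symbol from the 31053 genes of the count tables, and all 10 were found. They had been chosen by their levels and ratios in these same nuclei, so both are given as a description, with no test. The data are single-nucleus RNA counts (10x Genomics) from the paraventricular nucleus of the mouse hypothalamus, a small region beside the third ventricle that holds neurons making oxytocin (OT) and vasopressin.

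The study had 5 libraries in 2 experiments, all from male mice on a C57BL6 background, with 2 to 4 mice pooled per library. In the first experiment, mice carried OT-Cre, in which Cre is driven by the oxytocin promoter, and the tdTomato reporter Rosa26tm9(CAG-tdTomato)Hze (Ai9). Their dams received saline (10 mL/kg) or sodium valproate (VPA, 500 mg/kg) at embryonic day 12.5, and nuclei were taken at 5 weeks. In the second experiment, mice carried OT-Cre and Rosa26dreaddm3 (stop-hM3), a Cre-dependent receptor that clozapine N-oxide (CNO) activates. All mice of the second experiment, the control included, had been exposed to VPA (500 mg/kg) at embryonic day 12.5. At postnatal day 2 they received saline (the hM3 control library) or CNO (2 libraries), and nuclei were taken at an age of 5 to 7 weeks. Their labels also mention that AAV was injected around the paraventricular and supraoptic nuclei; what it carried is not given in the sources used here. Tissue of the first experiment was dissected by tdTomato fluorescence, and nuclei were sorted by a DNA stain with a gate for larger nuclei and against multiplets. The first contrast asks what prenatal VPA changed, and the second what early stimulation of OT neurons changed after that exposure. Each arm other than CNO is 1 library, animals within a library cannot be told apart, and no p-value is given.

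The 5 libraries held 32292 nuclei and 52506958 to 76243280 UMIs (unique molecular identifiers, which tag single captured RNA molecules) each, and 29537 nuclei were used. Median UMIs per deposited nucleus were 11068 (saline), 5451 (VPA), 11119 (hM3 control), 11913 and 3722.5 (CNO replicates 1 and 2). Some 208 cell barcodes occurred in more than one library. Levels are CPM, the UMIs of a gene scaled to a fixed total (1000000 UMIs) of the same class in the same library. Intervals are exact Poisson intervals at 95% and cover counting error only. In sums over nuclei, fewer nuclei with a transcript and less transcript per nucleus cannot be told apart, so the nuclei behind a value are given where the result turns on few of them.

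Heparan sulfate is a sulfated sugar chain that is built on core proteins at the cell surface and in the matrix. Glypicans are core proteins held in the membrane by a lipid anchor. N-deacetylase/N-sulfotransferases make the first modification of the growing chain, and 3-O-sulfotransferases make a late and rare one that creates binding sites for particular proteins. The chains bind growth factors, guidance cues and synaptic adhesion proteins, and glypicans made by astrocytes are known to act on synapse formation.

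Classes were named from markers of clusters made without the 10 genes, without the other heparan sulfate genes and without Oxt and Avp. The thresholds behind the names were set once the clusters had been seen. OT-like nuclei numbered 309 (78, 120, 55, 14 and 42 in the saline, VPA, control, first CNO and second CNO library). They formed 2 clusters. The Reln-low cluster (215 nuclei) held Oxt at 1036 CPM, Sim1 at 703 and Calb1, a calcium-binding protein, at 136. The Reln-rich cluster (94 nuclei) held Oxt at 911 CPM, Reln at 864 and Calb1 at 9.93. The label fits their defining markers: Sim1, Otp and the vesicular glutamate transporter Slc17a6 were present in both, while the GABAergic markers summed to 7.74 to 18.7 CPM per library in OT-like nuclei against 345 to 438 in GABAergic nuclei. Astrocyte markers summed to 35.8 to 54.3 CPM in OT-like nuclei against 6030 to 7511 in astrocyte-like nuclei. Oxt itself stood at 42.3 CPM in oligodendrocyte-like nuclei, which do not make it. The other classes used here are AVP-like (241 nuclei), which are part of the Sim1-rich class (4071 nuclei), GABAergic (9714), thalamus-type (1122), astrocyte-like (4790), oligodendrocyte-like (2533), oligodendrocyte progenitor-like (648), microglia-like (379), vascular-like (305) and fibroblast-like nuclei (161).

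Gpc3 (ENSMUSG00000055653) and Gpc4 (ENSMUSG00000031119) are neighbours on the minus strand of the X chromosome, at chrX:52272426-52613950 and chrX:52053021-52165252 of GRCm38. Gpc5 (ENSMUSG00000022112) at chr14:115092215-116525179 and Gpc6 (ENSMUSG00000058571) at chr14:116925315-117976544 are neighbours too, both on the plus strand, and span 1433 and 1051 kb. Hs3st3b1 (ENSMUSG00000070407) lies at chr11:63885792-63922290 on the minus strand and Hs3st5 (ENSMUSG00000044499) at chr10:36506814-36834397 on the plus strand. Hs3st4 (ENSMUSG00000078591) lies at chr7:123982869-124398989, Hs3st2 (ENSMUSG00000046321) at chr7:121391859-121501770 and Ndst4 (ENSMUSG00000027971) at chr3:125404076-125728899, all on the plus strand. Hs3st1 (ENSMUSG00000051022) lies at chr5:39613935-39755475 on the minus strand. Introns make up 86.5% to 99.7% of the 10 loci in GENCODE vM21. Gpc3 is overlapped on the opposite strand by Gm14582 and A630012P03Rik, Hs3st2 by Gm36736 and 4933432K03Rik, and Hs3st4 by Gm27040. Whether counting used strand is not given in the sources used here, so reads of these pairs may not be told apart.

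Promoter sequences from RefSeq (GRCm38.p6) were matched for 8 of the 10 genes, and 4 are shown because these genes differed most between the OT clusters (Gpc3, Hs3st3b1, Hs3st5) or marked astrocytes (Gpc5). Each runs 5′ to 3′ on the gene's strand from 250 bases before to 50 after the start, with CG dinucleotides in capitals. They lie at chrX:52613925-52614224 (minus strand, Gpc3), chr14:115091965-115092264 (plus, Gpc5), chr11:63922235-63922534 (minus, Hs3st3b1) and chr10:36506557-36506856 (plus, Hs3st5).
Gpc3: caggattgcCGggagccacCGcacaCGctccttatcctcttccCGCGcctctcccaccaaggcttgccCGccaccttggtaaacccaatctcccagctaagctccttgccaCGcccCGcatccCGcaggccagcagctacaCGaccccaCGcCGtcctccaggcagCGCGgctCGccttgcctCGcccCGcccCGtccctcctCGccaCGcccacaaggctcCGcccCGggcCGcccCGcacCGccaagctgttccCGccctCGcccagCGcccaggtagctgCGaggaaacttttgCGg
Gpc5: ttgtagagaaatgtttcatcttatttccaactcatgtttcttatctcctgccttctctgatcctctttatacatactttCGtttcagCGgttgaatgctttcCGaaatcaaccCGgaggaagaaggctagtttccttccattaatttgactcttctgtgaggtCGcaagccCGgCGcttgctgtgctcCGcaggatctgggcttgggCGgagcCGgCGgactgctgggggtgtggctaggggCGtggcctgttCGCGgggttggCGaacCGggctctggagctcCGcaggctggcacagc
Hs3st3b1: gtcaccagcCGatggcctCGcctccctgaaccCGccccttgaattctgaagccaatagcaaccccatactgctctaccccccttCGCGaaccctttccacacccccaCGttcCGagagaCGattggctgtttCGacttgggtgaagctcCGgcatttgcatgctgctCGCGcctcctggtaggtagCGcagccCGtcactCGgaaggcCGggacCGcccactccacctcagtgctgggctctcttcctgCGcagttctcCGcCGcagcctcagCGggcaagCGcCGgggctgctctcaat
Hs3st5: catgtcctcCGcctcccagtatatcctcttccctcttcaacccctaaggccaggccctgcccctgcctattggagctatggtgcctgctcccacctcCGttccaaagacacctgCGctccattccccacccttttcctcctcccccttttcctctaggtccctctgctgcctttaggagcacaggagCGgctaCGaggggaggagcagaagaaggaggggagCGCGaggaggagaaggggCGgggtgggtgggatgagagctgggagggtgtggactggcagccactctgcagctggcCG
The dinucleotide CG reads the same on both strands. Gpc3 held 30 of them, a number that 11.7% of 32851 promoters of this length reached. Gpc5 held 17 (31.4% of promoters had as many), Hs3st3b1 held 23 (21.5%) and Hs3st5 held 9 (45.8%), against a median of 7 over all promoters. Hs3st4 held 47, which 1.44% of promoters reached. The counts describe the windows alone, and no mark on the DNA was measured in these libraries.

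Across classes the 10 genes had different leading cells. Over all libraries Gpc5 was highest in astrocyte-like nuclei, Hs3st1 in oligodendrocyte-like nuclei, and Hs3st2 and Hs3st4 in GABAergic neurons, among 10 classes compared. Vascular-like nuclei led Hs3st1 in CNO replicate 1, at 120 CPM on 6 UMIs against 73.7. Gpc3 was led by vascular-like nuclei in 4 of 5 libraries and by OT-like nuclei in the hM3 control. Fibroblast-like nuclei, which were not among those 10 classes, exceeded all of them over all libraries for Gpc3 (239 CPM), Gpc4 (79.1) and Gpc6 (2512). For Hs3st1 they exceeded oligodendrocyte-like nuclei in the hM3 control and both CNO libraries, but not in saline, VPA or over all libraries (76.3 against 86.9). Of the 10 genes, 3 kept the same leading class in all 5 libraries: Gpc5 (astrocyte-like), Hs3st2 and Hs3st4 (both GABAergic). The number was 6 with classes taken by gates on marker UMIs, and 6 with the 6 classes of at least 50 nuclei in each library. In abundance Gpc5 was rank 91 of 31053 genes by UMIs over all nuclei (343355 UMIs), Gpc6 rank 143 (251476) and Hs3st4 rank 284 (141562), whereas Hs3st3b1 was rank 10242 (2337). These ranks are not corrected for gene length, and nuclear RNA is rich in introns, so they order UMIs and not transcripts.

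**Figure D1:**
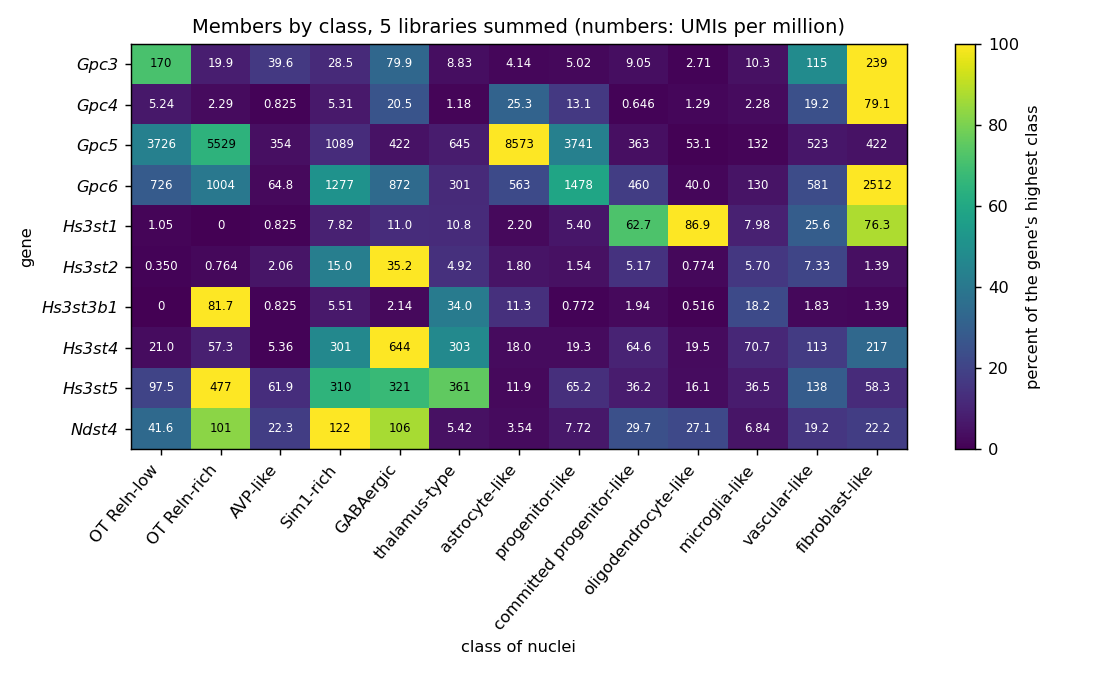
Heat map of the 10 genes (rows) over 13 cell classes (columns), with the 5 libraries summed. Colour gives the level as a percent of the gene's highest class shown and the printed numbers give CPM. The glial, OT-like and GABAergic peaks fall in different rows, as for Gpc5 in astrocyte-like nuclei (8573) and Hs3st4 in GABAergic nuclei (644).

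Gpc5 was an astrocyte transcript that OT-like neurons also carried at high level. Its level in astrocyte-like nuclei was 8965 CPM (saline), 8076 (VPA), 9688 (hM3 control), 7998 and 7440 (CNO replicates 1 and 2). In the Reln-rich OT cluster it was 6322, 6161, 4422, 4851 and 5294 CPM in the same order, and in the Reln-low OT cluster 3406, 3822, 4539, 2312 and 3409. The Reln-rich cluster was therefore above the Reln-low cluster in 4 of 5 libraries, and slightly below it in the hM3 control. Oligodendrocyte progenitor-like nuclei (3741 CPM, 3160 to 4760) overlapped the Reln-low cluster. Sim1-rich neurons lay lower, at 1265, 1005, 995, 1029 and 949 CPM, and GABAergic neurons lower still, at 450, 357, 468, 373 and 543. No library of Sim1-rich nuclei reached any library of OT-like nuclei (2865 to 4497). With every nucleus thinned to 1000 UMIs, Gpc5 was found in 97.9% of astrocyte-like, 90.7% of progenitor-like, 80.6% of OT-like and 5.61% of oligodendrocyte-like nuclei (99.0%, 97.5%, 98.7% and 13.5% before thinning). The astrocyte markers in OT-like nuclei stood at the low sums given above.

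AVP-like neurons, which lie next to OT neurons and share Sim1 and Otp with them, held far less Gpc5. Their levels were 226 CPM (saline), 387 (VPA), 610 (hM3 control), 131 and 122 (CNO replicates 1 and 2), and all were below every OT-like library. Among 48 neuron clusters of at least 50 nuclei the median for Gpc5 was 484 CPM and the range 74.6 to 5982. Over all libraries a single cluster lay above both OT clusters, at 5982 CPM: 412 Sim1-rich nuclei led by the angiotensin receptor Agtr1a and Ppp1r17, at 6829 CPM in saline, 5716 in VPA, 4877 in the hM3 control and 4202 in CNO replicate 2. It was above the Reln-rich OT cluster in saline and the hM3 control and below it in VPA and CNO replicate 2. CNO replicate 1 had fewer than 10 nuclei of that cluster.

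Gpc6, the neighbour of Gpc5, was spread over most neurons and was highest, by class, in fibroblast-like nuclei. These held 3381, 1923, 1647, 2619 and 2699 CPM, in the library order above, on 32, 35, 24, 5 and 65 nuclei. Progenitor-like nuclei followed with 1164 to 1556 CPM and Sim1-rich neurons with 1079 to 1420, ranges that overlap. GABAergic neurons held 737 to 1097 CPM, OT-like neurons 595 to 890 and astrocyte-like nuclei 488 to 780, so the ranges of these 3 classes overlap, although the OT-like value was above the astrocyte-like one in each library. AVP-like nuclei again stood apart at 74.7, 74.1, 58.3, 48.3 and 28.1 CPM, and their 2 clusters were the lowest of the 48 neuron clusters. The highest neuron clusters were 135 Sim1-rich nuclei led by Sim1 and the corticotropin-family peptide Ucn3, at 2809 CPM (2155 to 3150 over 4 libraries), and the Agtr1a cluster at 2317.

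Gpc3, a glypican best known from hedgehog signalling and overgrowth, separated the OT clusters in the opposite direction to Gpc5. In Reln-low OT nuclei it was 140 CPM in saline (123 UMIs), 158 in VPA (127), 264 in the hM3 control (189), and 85.1 (18) and 116 (29) in CNO replicates 1 and 2. In Reln-rich OT nuclei it was 32.7, 16.1, 17.3, 0 and 0 CPM in the same order, on 15, 4, 7, 0 and 0 UMIs. No library of the one cluster overlapped any library of the other. A UMI of Gpc3 was found in 56.7% of Reln-low nuclei, 11.7% of Reln-rich nuclei and 0.790% of oligodendrocyte-like nuclei (7.91%, 0 and 0.237% after thinning). GABAergic neurons held 93.4, 84.1, 82.0, 72.4 and 49.3 CPM and, being many, 62.4% of the Gpc3 UMIs. The 48 neuron clusters ranged up to 184 CPM, in a GABAergic cluster, and the Reln-low OT cluster held 170 over all libraries. Fibroblast-like nuclei held 84.7, 693, 148, 45.1 and 192 CPM, on 10, 76, 18, 1 and 67 UMIs. Vascular-like nuclei held 93.1 to 146 CPM, which overlaps the OT-like range of 66.5 to 175, and astrocyte-like nuclei 1.70 to 6.53.

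AVP-like nuclei held Gpc3 at 30.7, 32.1, 65.0, 48.3 and 18.7 CPM, below the Reln-low OT cluster in each library. All of it came from the larger AVP-like cluster (52.3 CPM in 190 nuclei), and the smaller one (51 nuclei) had 0 UMIs with a floor of 5.12 CPM, the level of 3 counts. The opposite-strand transcript A630012P03Rik had 30, 30, 38, 0 and 10 UMIs in Reln-low OT nuclei, and Gm14582 had 8, 23, 7, 0 and 6.

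Gpc4, a glypican that astrocytes release and that is known for promoting excitatory synapses, was scarce in OT neurons. OT-like nuclei had 6, 2, 8, 1 and 1 UMIs, or 4.32 CPM over all libraries. It was also scarce in Sim1-rich (5.31 CPM), AVP-like (0.825) and thalamus-type neurons (1.18). Astrocyte-like nuclei held 14.1, 22.3, 32.2, 25.5 and 25.9 CPM and GABAergic neurons 19.3, 25.1, 20.5, 19.7 and 11.1, so these classes overlapped. Fibroblast-like nuclei were higher over all libraries, at 50.8, 164, 57.4, 0 and 74.6 CPM on 6, 18, 7, 0 and 26 UMIs, and ependymal-like nuclei (100 nuclei) held 44.8 over all libraries. A GABAergic cluster of 598 nuclei with Isl1 and Nr4a2 among its leading genes held Gpc4 at 71.5 CPM (37.8 to 121 over the 5 libraries). The median of the 48 neuron clusters was 4.94 CPM.

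**Figure D2:**
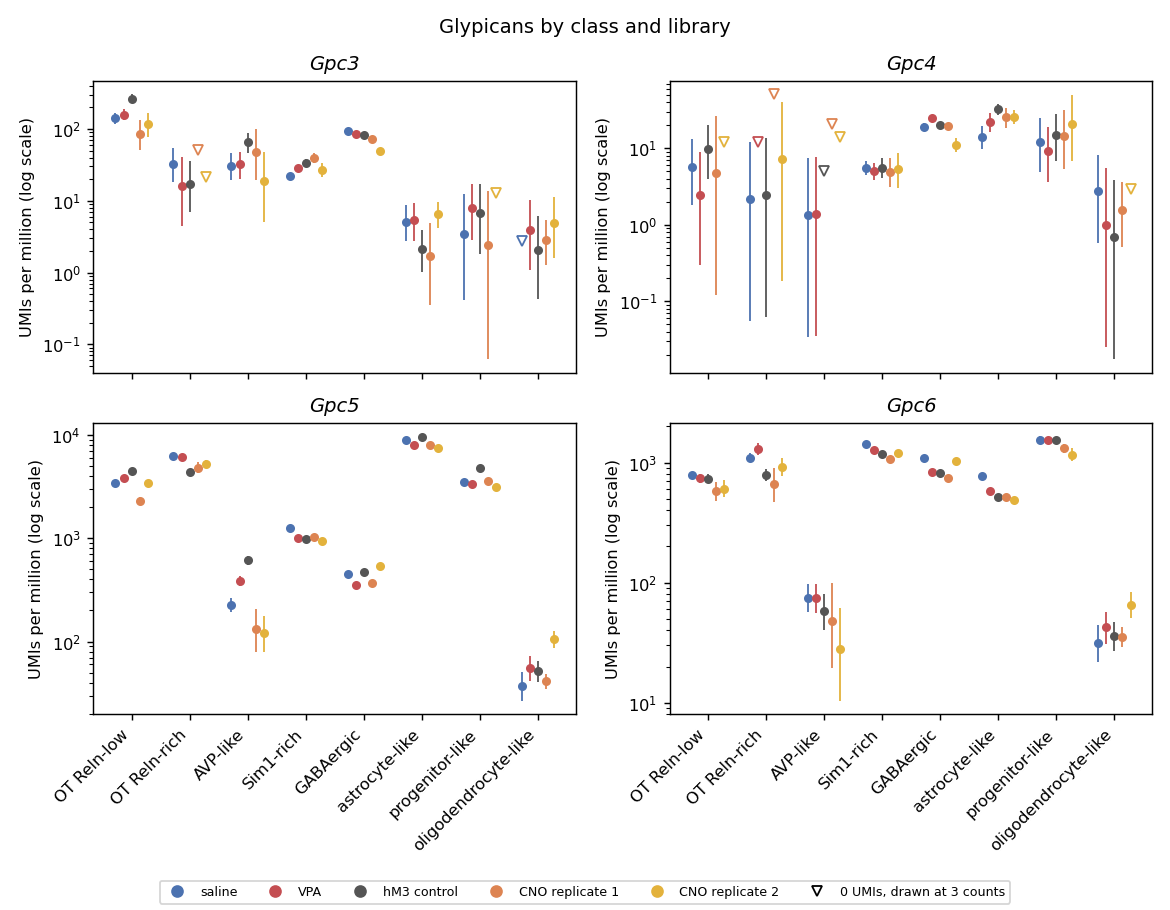
Levels of Gpc3, Gpc4, Gpc5 and Gpc6 (CPM, log axis) in 8 cell classes, 1 point per library with exact Poisson 95% intervals. Open triangles stand for 0 UMIs and are drawn at the level of 3 counts. Gpc3 is high in the Reln-low OT cluster (85.1 to 264) and low in the Reln-rich cluster (0 to 32.7), and Gpc5 is low in AVP-like nuclei (122 to 610) beside OT-like nuclei.

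Ndst4, the N-deacetylase and N-sulfotransferase of the group, was a neuronal transcript. Sim1-rich neurons held 128, 122, 114, 108 and 137 CPM and GABAergic neurons 119, 90.6, 118, 105 and 91.0, ranges that overlap. OT-like neurons held less, at 50.7, 30.5, 99.9, 73.9 and 49.0 CPM on 68, 32, 112, 20 and 19 UMIs, and each library was below its own Sim1-rich value. Within them the Reln-rich cluster was at 89.4, 60.4, 131, 288 and 43.3 CPM and the Reln-low cluster at 30.6, 21.2, 82.3, 14.2 and 52.2. The first was higher in 4 of 5 libraries and lower in CNO replicate 2, and the value of 288 rests on 3 nuclei. Thalamus-type neurons held 5.42 CPM and astrocyte-like nuclei 3.54, while oligodendrocyte-like nuclei held 22.1 to 52.9. The highest cluster held 321 Sim1-rich nuclei led by the calcitonin receptor Calcr and Pde3a, at 408, 524, 678, 629 and 363 CPM, against a median of 52.8 over the neuron clusters.

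Hs3st3b1 marked the Reln-rich OT cluster. That cluster held 98.1 CPM in saline (45 UMIs), 80.6 in VPA (20), 71.7 in the hM3 control (29), and 67.8 (4) and 64.9 (9) in CNO replicates 1 and 2. The 215 Reln-low OT nuclei held 0 UMIs in every library, with a floor of 1.05 CPM over all libraries, the level of 3 counts. The Reln-rich cluster was 78.0-fold above that floor. A UMI was found in 19 of 26, 13 of 29, 12 of 19, 3 of 3 and 5 of 17 Reln-rich nuclei, in the library order above. The 3 top nuclei held 37.8%, 40.0% and 48.3% of the UMIs in the saline, VPA and hM3 control libraries, and 100% and 77.8% in the CNO libraries. In oligodendrocyte-like nuclei the share with a UMI was 0.158%. The Reln-rich OT cluster was the highest of the 48 neuron clusters, whose median was 1.49 CPM. Next came 64 Sim1-rich nuclei led by Esr2 and Foxp2, at 50.2 CPM. Reln-rich Sim1 nuclei low in Oxt held 35.0, 25.6, 26.2, 31.9 and 10.8 CPM, each library below the Reln-rich OT nuclei.

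Thalamus-type neurons also held Hs3st3b1, at 39.9, 35.7, 37.5, 33.5 and 22.4 CPM, as against 2.14 CPM in GABAergic and 5.51 in Sim1-rich neurons over all libraries. The paralog Hs3st3a1, which makes a closely related enzyme, had 21 UMIs (16.0 CPM) in Reln-rich OT nuclei, 0 in Reln-low OT nuclei and 43.1 CPM in thalamus-type neurons. Reads of the pair may be shared where their sequences match, so how the UMIs divide between them is uncertain.

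Hs3st5 differed between the OT clusters in the same direction. The Reln-rich cluster held 504 CPM (saline), 508 (VPA), 477 (hM3 control), 254 and 433 (CNO replicates 1 and 2). The Reln-low cluster held 160, 72.3, 89.3, 9.45 and 56.2 in the same order, with no overlap of the 2 ranges. The values of CNO replicate 1 rest on 15 UMIs in 3 Reln-rich nuclei and 2 UMIs in 11 Reln-low nuclei. A UMI was found in 90.4% of Reln-rich, 48.8% of Reln-low and 3.87% of oligodendrocyte-like nuclei (35.1%, 8.37% and 1.54% after thinning). Thalamus-type (266 to 468 CPM), GABAergic (252 to 358) and Sim1-rich neurons (279 to 349) overlapped one another, and AVP-like nuclei held 61.9 CPM. Astrocyte-like (11.9) and oligodendrocyte-like nuclei (16.1) were lowest. Among the neuron clusters, 534 Sim1-rich nuclei led by Ebf1 with Sim2 were highest at 651 CPM, and the Agtr1a cluster, highest for Gpc5, was lowest at 29.0.

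Among the classes named above, Hs3st4 was highest in GABAergic neurons, and OT neurons held it at low level. GABAergic neurons held 777, 609, 541, 633 and 814 CPM, Sim1-rich neurons 359, 262, 277, 290 and 267 and thalamus-type neurons 349, 360, 411, 258 and 218. Neurons outside the named classes (3307 nuclei) held 456 to 802 CPM, which overlaps the GABAergic range. After thinning, a UMI was found in 29.9% of them and in 31.9% of GABAergic nuclei. OT-like neurons held 15.7 CPM in saline (21 UMIs), 61.9 in VPA (65), 39.2 in the hM3 control (44), and 0 and 12.9 (5) in CNO replicates 1 and 2. Every OT-like library was below every Sim1-rich library, and astrocyte-like nuclei, at 18.0 CPM, and oligodendrocyte-like nuclei, at 19.5, lay within the OT-like range. AVP-like nuclei were lower still over all libraries, at 5.36 CPM against 32.4 in OT-like nuclei. The highest were 2 GABAergic clusters led by Meis2: 124 nuclei with Pvalb at 2815 CPM and 533 nuclei with Isl1 at 1954, against a median of 311.

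Hs3st1 and Hs3st2 were nearly absent from OT-like and AVP-like neurons. Hs3st1, known for making the antithrombin-binding site of heparan sulfate, was at 118, 115, 91.8, 73.7 and 60.9 CPM in oligodendrocyte-like nuclei and 53.0, 108, 35.1, 48.2 and 51.8 in committed progenitor-like nuclei (219 nuclei). OT-like nuclei had 3 Hs3st1 UMIs in all 5 libraries, and astrocyte-like nuclei stood at 2.20 CPM. Hs3st2 was at 18.8 to 45.2 CPM in GABAergic neurons and at 9.05 to 18.0 in Sim1-rich neurons, which were lower in each library. OT-like nuclei had 2 Hs3st2 UMIs. AVP-like nuclei had 5 Hs3st2 UMIs, 4 of them in CNO replicate 1, and 2 Hs3st1 UMIs. Its highest cluster held 205 GABAergic nuclei with Esr1 and Prlr among the leading genes, at 107 CPM.

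**Figure D3:**
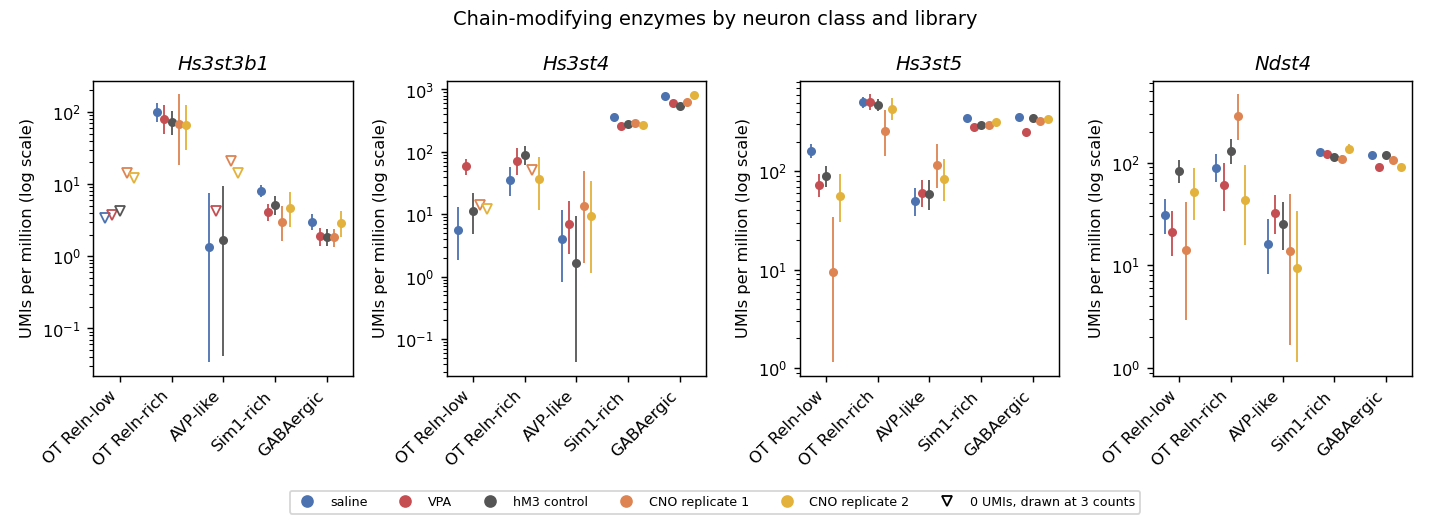
Levels of Hs3st3b1, Hs3st4, Hs3st5 and Ndst4 (CPM, log axis) in 5 neuron classes, 1 point per library with exact Poisson 95% intervals. Open triangles stand for 0 UMIs and are drawn at the level of 3 counts. Hs3st3b1 has UMIs in the Reln-rich OT cluster of every library (64.9 to 98.1) and none in the Reln-low cluster, and Hs3st5 is higher in the Reln-rich cluster in each library.

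Within the Reln-rich and Reln-low clusters the 10 genes therefore did not move as one. Gpc3 was higher in the Reln-low cluster in all 5 libraries, Hs3st3b1 and Hs3st5 were higher in the Reln-rich cluster in all 5, and Gpc5 and Ndst4 in 4 of 5. Gpc6 was also higher in the Reln-rich cluster in all 5, at 1099, 1306, 789, 661 and 923 CPM against 781, 739, 731, 577 and 606. Its counting intervals overlapped in the hM3 control (704 to 880 against 670 to 796). They also overlapped in CNO replicate 1 (470 to 904 against 479 to 689), where the Reln-rich value rests on 3 nuclei and 39 UMIs. Hs3st4 was higher in the Reln-rich cluster in 4 of 5, with 0 UMIs in both clusters of CNO replicate 1. Gpc4, Hs3st1 and Hs3st2 had too few UMIs in OT nuclei to compare. Over the 48 neuron clusters, the highest Pearson correlations of log2(CPM + 1) between pairs were 0.53 for Gpc3 and Gpc4, 0.52 for Gpc3 and Hs3st4 and 0.50 for Hs3st1 and Hs3st4. The lowest was -0.45, for Gpc5 and Hs3st1. The clusters share libraries, depth and lineages, so these coefficients describe the clusters and carry no p.

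The genes whose pattern over the 48 clusters was most like each of the 10 were taken from 9766 genes by the same coefficient. For Gpc3 they were the opposite-strand transcript A630012P03Rik (0.90), the lysosomal enzyme Galc (0.64) and Cpne8 (0.63). Gpc4 was most like Esyt3 (0.69), Wdr17 (0.68) and Gm15261 (0.68), Gpc5 most like Nek7 (0.67), Gm28501 (0.63) and Me1 (0.62), and Gpc6 most like Ppp2r2b (0.74), Pcdh15 (0.73) and Fam171a1 (0.70). Hs3st3b1 was most like its paralog Hs3st3a1 (0.86), the synaptic organizer Cbln4 (0.65) and Ntng1 (0.63). Hs3st4 was most like the teneurin Tenm2 (0.85), the glutamate receptor Grm5 (0.81) and Banf2 (0.80), and Hs3st5 most like Garnl3 (0.70), Sorcs1 (0.69) and Parvb (0.68). Hs3st1 was most like the potassium channel Kcnj3 (0.79), Peli2 (0.75) and Hnrnpu (0.74), Hs3st2 most like Hpca (0.63), Nptx1 (0.61) and Spred1 (0.61), and Ndst4 most like Gm33680 (0.67), B230217J21Rik (0.61) and Fgd5 (0.59).

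**Figure D4:**
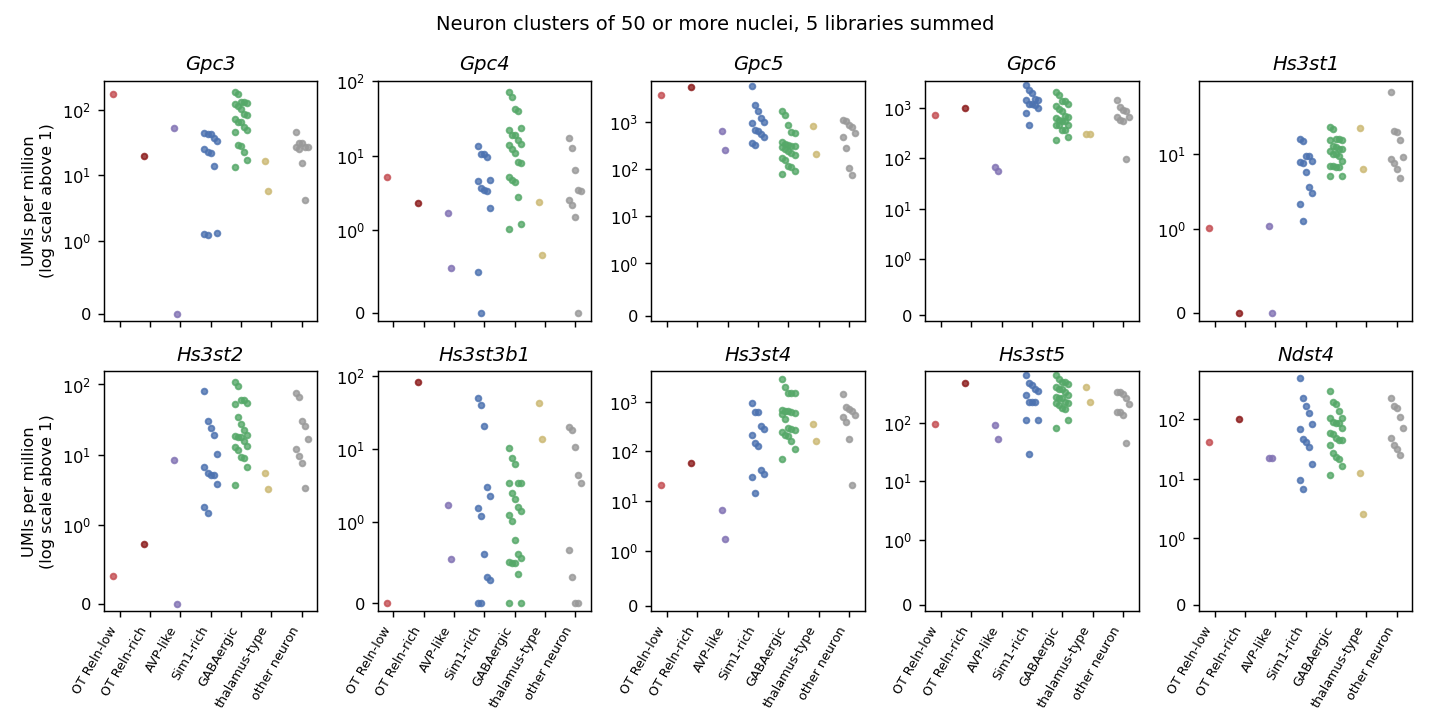
Levels of the 10 genes (CPM, log axis above 1) in 48 neuron clusters of at least 50 nuclei, 1 point per cluster, coloured by class, with the 5 libraries summed. The AVP-like clusters are lowest for Gpc6, and the Reln-rich OT cluster is highest for Hs3st3b1 (81.7).

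The VPA contrast set the VPA library against the saline library. A gene was past the fold where its log2 ratio of CPM was at least 0.5 in size with a 95% counting interval clear of 0, among genes with at least 20 UMIs over both libraries. In OT-like nuclei 7 of the 10 genes had enough UMIs and 4 were past the fold, 1 higher and 3 lower in VPA, where 7.45% of all genes were (3.98% higher and 3.47% lower). The choice of the 10 genes rests on this contrast too, so nothing is read from that count. Glypicans in OT-like nuclei differed little: Gpc5 was 4375 CPM in VPA and 4404 in saline (log2 ratio -0.01, -0.07 to 0.05), Gpc6 873 and 890 (-0.03, -0.15 to 0.10), and Gpc3 125 and 103 (0.28, -0.08 to 0.63). Gpc4, Hs3st1 and Hs3st2 had too few UMIs.

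The enzymes Hs3st5, Ndst4 and Hs3st3b1 were lower with VPA in OT-like nuclei. Hs3st5 was 175 CPM in VPA and 278 in saline (log2 ratio -0.66, -0.93 to -0.41), with a UMI in 64 of 120 nuclei against 60 of 78. Ndst4 was 30.5 and 50.7 CPM (-0.74, -1.39 to -0.11), with a UMI in 18 of 120 against 33 of 78 nuclei. Median UMIs of these nuclei were 8282 in VPA and 14908.5 in saline, and a share of nuclei with a UMI also moves with depth. Hs3st3b1 was lower by a log2 ratio of -0.82 (-1.66 to -0.03), and the Reln-rich cluster, in which all of its UMIs lay, made up 24.2% of OT-like nuclei in VPA and 33.3% in saline. Within the Reln-rich cluster the Hs3st3b1 ratio was -0.28 (-1.12 to 0.51). With OT-like nuclei taken by gates Hs3st5 stayed past the fold (-0.69), and Ndst4 (-0.39) and Hs3st3b1 (-0.34) did not. Ndst4 also fell short with a mixed OT cluster of 56 nuclei, set aside for its share of doublets, counted in (-0.29) and within either OT cluster (-0.53 and -0.56). Hs3st3b1 fell short with doublets kept (-0.73) or without its top nucleus in each library (-0.75).

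By cluster the log2 ratio of Hs3st5 was -1.15 (-1.61 to -0.69) in Reln-low and 0.01 (-0.31 to 0.33) in Reln-rich nuclei, and whether the 2 clusters differ in response was not tested. In Reln-low nuclei 2 of the 10 genes were past the fold, Hs3st4 and Hs3st5, where 7.50% of all genes were. In Reln-rich nuclei Hs3st4 alone was (1.06, 0.00 to 2.12 with the lower bound just above 0), where 6.91% of all genes were. Of its 18 UMIs in VPA, 12 came from 1 nucleus and 16 from 3, and a UMI was found in 5 of 29 nuclei against 5 of 26 in saline (16 UMIs, 4 in the top nucleus).

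Hs3st4 was higher with VPA in OT-like nuclei, at 61.9 against 15.7 CPM (log2 ratio 1.98, 1.25 to 2.77), but on few nuclei. Of its 65 UMIs in VPA, 31 came from 1 nucleus and 47 from 3, and the share of nuclei with a UMI was 10.8% (13 of 120) in VPA and 12.8% (10 of 78) in saline. Without the top nucleus the ratio was 1.34. With OT-like nuclei taken by gates on Oxt, Sim1 and other markers in place of clusters it was 0.44, and with the mixed OT cluster counted in it was 0.79. GABAergic markers summed to 8.21 CPM in saline and 11.4 in VPA OT-like nuclei, and their part in the ratio was not tested.

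**Figure D5:**
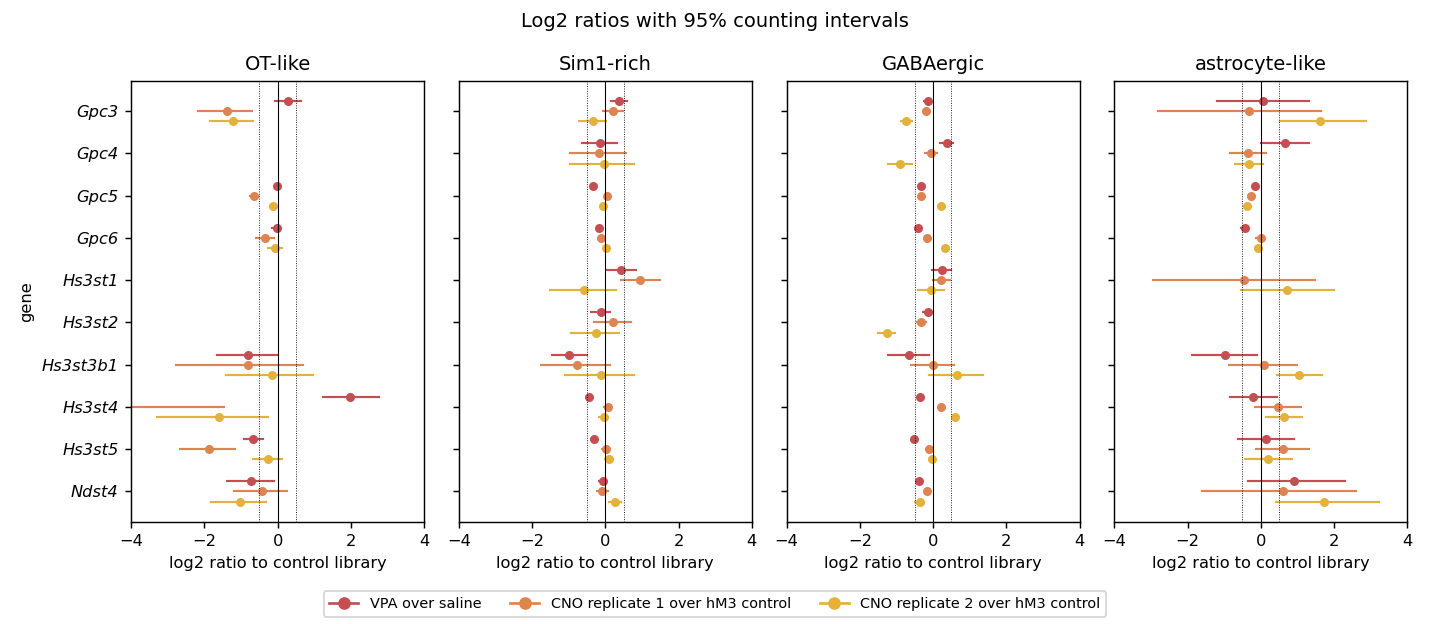
Log2 ratios of CPM for VPA over saline and for each CNO library over the hM3 control in OT-like, Sim1-rich, GABAergic and astrocyte-like nuclei, with 95% counting intervals. Dotted lines mark 0.5 in either direction; only genes with at least 20 UMIs are drawn, intervals end at the axis, and no point is drawn for Hs3st4 in OT-like nuclei of CNO replicate 1, which had 0 UMIs. Gpc3 in OT-like nuclei lies left of the dotted line for both CNO libraries (-1.39 and -1.22).

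In Sim1-rich neurons Hs3st3b1 was past the fold, at 4.05 against 8.0 CPM (log2 ratio -0.98, -1.47 to -0.51), 1 of 10 genes where 8.92% of all genes were. The ratio was -0.36 with a pseudocount of 10 CPM and -0.38 with equal weight per sub-cluster, both short of the fold. Hs3st4 (-0.45), Gpc5 (-0.33) and Hs3st5 (-0.32) were lower by less than the fold, and Hs3st1 (0.44, 0.04 to 0.84) and Gpc3 (0.36, 0.15 to 0.58) higher by less than it. In GABAergic neurons Hs3st3b1 (-0.67, -1.22 to -0.11) and Hs3st5 (-0.51, -0.56 to -0.46) were past it, 2 of 10 where 9.27% of all genes were. Both fell short with the pseudocount (-0.13 and -0.49), Hs3st3b1 also with per-nucleus means (-0.46), and Hs3st5 also with gates (-0.48) and equal weight (-0.33). Gpc6 (-0.40), Ndst4 (-0.39), Hs3st4 (-0.35) and Gpc5 (-0.33) were lower there and Gpc4 (0.37) was higher. The median log2 ratio of the 10 genes in GABAergic neurons was -0.34, beside 0.06 over all genes counted. In thalamus-type neurons, which held more Hs3st3b1, its ratio was -0.16 (-0.57 to 0.23).

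In astrocyte-like nuclei 2 of 8 genes were past the fold, where 10.4% of all genes were. Gpc4 was 22.3 CPM in VPA and 14.1 in saline (log2 ratio 0.66, 0.01 to 1.32), and Hs3st3b1 7.59 and 14.9 (-0.97, -1.89 to -0.11). In the same nuclei the 3 GABAergic markers, none at 0, summed to 24.7 CPM in saline and 57.6 in VPA, and Oxt stood at 54.1 and 106; their part in the Gpc4 ratio was not tested. With gates neither gene was past the fold (0.42 for Gpc4 and -0.58 for Hs3st3b1). Gpc4 also fell short with size factors (0.61) and the pseudocount (0.42), and Hs3st3b1 with a minimum of 2000 UMIs (-0.71). With astrocyte-like nuclei low in interferon genes alone, the Gpc4 ratio was 0.67 with an interval of -0.01 to 1.36, which reaches 0, and Hs3st3b1 alone of 8 genes was past the fold (11.2% of all genes). Gpc5 (-0.15) and Gpc6 (-0.43) were lower by less than the fold. In AVP-like nuclei Gpc5 was higher in VPA (0.78, 0.50 to 1.06), 1 of 5 genes where 7.15% of all genes were. The smaller AVP-like cluster, which held more Gpc5, had 24 of the 102 VPA nuclei and 6 of the 59 saline nuclei, and within the larger cluster Gpc5 was 270 CPM in VPA and 231 in saline. The GABAergic marker Gad2 was 21.0 CPM in VPA (15 UMIs) and 2.67 in saline (2 UMIs) in AVP-like nuclei, and its part in the Gpc5 ratio was not tested. In oligodendrocyte-like nuclei Ndst4 was lower (-1.16, -1.91 to -0.44), 1 of 6 where 10.5% were, and in thalamus-type neurons 0 of 9 genes were past the fold where 9.30% were. Progenitor-like nuclei had 0 of 4 (7.33% of all genes) and microglia-like nuclei 0 of 2 (8.08%).

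The CNO contrast set each CNO library against the hM3 control, and a gene was past the fold only where both CNO libraries were, in the same direction. Both ratios share the control library, so they are 2 readings against 1 control. In OT-like nuclei 2 of 7 genes, Gpc3 and Hs3st4, were past the fold, both lower with CNO, where 1.62% of all genes were (0.879% higher and 0.744% lower). Gpc3 was 66.5 CPM in CNO replicate 1 (18 UMIs) and 74.8 in CNO replicate 2 (29) against 175 in the control (196). The log2 ratios were -1.39 (-2.18 to -0.70) and -1.22 (-1.84 to -0.66). Within the Reln-low cluster they were -1.63 (-2.42 to -0.93) and -1.18 (-1.80 to -0.61), 1 of 5 genes where 1.39% of all genes were past the fold. A Gpc3 UMI was found in 28 of 36 Reln-low nuclei of the control. The numbers were 8 of 11 in CNO replicate 1 and 12 of 25 in CNO replicate 2. Median UMIs of Reln-low nuclei were 18597.5 (control), 16209 and 8269 (CNO replicates 1 and 2). A share of nuclei with a UMI also moves with depth, so these shares cannot decide whether fewer nuclei held Gpc3. In the control, 73 of the 189 Gpc3 UMIs lay in 3 nuclei, 33 of them in 1. The 3 top nuclei held 12 of 18 in CNO replicate 1 and 13 of 29 in CNO replicate 2. The control was the highest of all 5 libraries for Gpc3 in this cluster, and the saline (140 CPM) and VPA (158) libraries of the first experiment lay between it and the CNO libraries. The ratio nearer 0 was -0.54 with gates in place of clusters and -0.68 with the set-aside OT cluster kept.

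Hs3st4 in OT-like nuclei went from 44 UMIs in the control to 0 in CNO replicate 1, at least 3.54-fold lower with a floor of 11.1 CPM, and to 5 in CNO replicate 2 (log2 ratio -1.61, -3.30 to -0.27). The 44 UMIs of the control lay in 12 of 55 nuclei, 26 of them in 3 nuclei and 36 in the 19 Reln-rich nuclei. CNO replicate 1 had 3 Reln-rich nuclei. That direction depended on which nuclei were counted: the ratio nearer 0 was 0.40 with gates, -0.12 with per-nucleus means and 0.01 with the set-aside OT cluster kept, a cluster in which Hs3st4 stood at 321 CPM. Hs3st5 showed how far the CNO libraries could differ from each other. It was 62.8 CPM in CNO replicate 1 and 191 in CNO replicate 2 against 229 in the control, log2 ratios of -1.87 (-2.67 to -1.16) and -0.26 (-0.66 to 0.11), a gap of 1.60 (0.83 to 2.46) between libraries of one arm. CNO replicate 1 had 17 Hs3st5 UMIs in OT-like nuclei, 15 of them in 3 Reln-rich nuclei and 2 in 11 Reln-low nuclei. The Reln-rich cluster, in which Hs3st5 was higher, made up 21.4% of the 14 OT-like nuclei of CNO replicate 1 (exact binomial interval 4.66% to 50.8%), 40.5% in CNO replicate 2 and 34.5% in the control. Ndst4 was lower by log2 ratios of -0.43 and -1.03, Gpc5 by -0.65 and -0.14, Gpc6 by -0.34 and -0.06 and Hs3st3b1 by -0.81 and -0.16, none past the fold in both libraries. By cluster the Gpc5 ratios were -0.97 and -0.41 in Reln-low and 0.13 and 0.26 in Reln-rich nuclei. In Reln-rich OT nuclei 0 of 6 genes were past it, where 1.47% of all genes were.

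In Sim1-rich neurons 0 of 10 genes were past the fold with CNO, where 3.40% of all genes were, and in GABAergic neurons 0 of 10, where 4.32% were. Gpc3 in GABAergic neurons was lower by -0.18 and -0.73, Hs3st2 by -0.32 and -1.27 and Gpc4 by -0.06 and -0.89, while Hs3st4 was higher by 0.23 and 0.59. For these 4 genes CNO replicate 2 lay farther from the control than CNO replicate 1. In the same nuclei Sim1 was 16.7 CPM in the control and 13.7 and 39.0 in CNO replicates 1 and 2. The GABAergic markers summed to 403, 402 and 345 CPM. The part of other neurons in these ratios was not tested. In astrocyte-like nuclei 0 of 9 genes were past the fold where 4.89% of all genes were. Gpc5 was lower there by -0.28 and -0.38. Interferon-responding nuclei, 2060 of the 4790 astrocyte-like nuclei with 1474 of them in CNO replicate 2, held Gpc5 at 7260 CPM against 9467 in the others. Among astrocyte-like nuclei low in interferon genes the Gpc5 ratios were -0.19 and -0.15, and 0 of 6 genes were past the fold (1.10% of all genes).

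In AVP-like neurons Gpc5 was lower with CNO. It was 131 and 122 CPM in the CNO libraries, on 19 and 26 UMIs from 10 and 29 nuclei, against 610 in the control (366 UMIs, 41 nuclei). The log2 ratios were -2.22 (-2.97 to -1.55) and -2.33 (-2.96 to -1.75), 1 of 4 genes past the fold where 1.31% of all genes were. The smaller AVP-like cluster, which held more Gpc5 (655 against 257 CPM over all libraries), had 13 of the 41 control nuclei, 4 of 10 in CNO replicate 1 and 4 of 29 in CNO replicate 2. Within the larger cluster Gpc5 was 360 CPM in the control and 109 in CNO replicate 2. In the first experiment the levels were 226 and 387 CPM, so the hM3 control was the highest of the 5 libraries. In thalamus-type neurons Hs3st4 was lower with CNO (-0.67 and -0.91), 1 of 9 where 6.08% were, and in microglia-like nuclei Gpc6 was higher (1.92 and 1.82) on 28, 41 and 21 UMIs, 1 of 4 where 3.78% were. Oligodendrocyte-like nuclei had 0 of 6 past the fold (3.50% of all genes) and progenitor-like nuclei 0 of 5 (2.18%).

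The remaining heparan sulfate genes were taken as a list of 58 (other core proteins, linkage and polymerising enzymes, other sulfotransferases, editing enzymes, sulfate supply and binding partners). In OT-like nuclei 43 of the 58 had enough UMIs in the VPA contrast: 0 were higher and 3 lower past the fold, where 7.45% of all genes were past it in either direction. These were the netrin receptor Unc5d (-0.54), the receptor phosphatase Ptprf (-0.53) and the Slit receptor Robo1 (-0.51). The list's median log2 ratio was -0.07, beside 0.03 over all genes. In the CNO contrast 39 were counted, with 0 higher and 2 lower (1.62% of all genes in either direction): the guidance cue Slit1 (-1.06 and -0.92) and Robo1 (-1.03 and -0.66), with a list median of -0.11 beside 0.01, each gene's 2 CNO ratios averaged. For the 7 of the 10 genes with enough UMIs the median in OT-like nuclei was -0.03 with VPA. With CNO it was -0.81 in CNO replicate 1, which had 14 OT-like nuclei, with Hs3st4 at the level of 3 counts, and -0.26 in CNO replicate 2. All-gene medians were 0.05 and -0.01 in these 2 libraries. With the ratios of both CNO libraries averaged per gene it was -0.73. In astrocyte-like nuclei the median of those of the 10 genes with enough UMIs was -0.04 with VPA (8 genes, 0.05 over all genes) and 0.00 and 0.63 in CNO replicates 1 and 2 (9 genes, 0.06 and 0.13 over all genes). Among those low in interferon genes it was 0.05 and 0.20 in the CNO libraries (6 genes, 0.03 and 0.07 over all genes). In oligodendrocyte-like nuclei (6 genes) it was 0.20 with VPA, and 0.02 and 0.83 in CNO replicates 1 and 2. All-gene medians there were 0.05, 0.10 and 0.16, and the list of 58 had 0.13 and 0.35 in the CNO libraries. Oxt in these nuclei was 28.3 CPM in the control and 9.10 and 121 in CNO replicates 1 and 2. The part of neuronal RNA in these medians was not tested. AVP-like nuclei had a median of 0.28 with VPA (5 genes, 0.05 over all genes). With CNO their median was -0.35 and -1.42 in CNO replicates 1 and 2 (4 genes, 0.05 and -0.01 over all genes).

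In Sim1-rich neurons 1 of 52 list genes was higher in VPA, the sulfate-donor synthase Papss2 (0.53), and 1 lower, Hs3st3a1 (-1.14), the paralog of Hs3st3b1, where 8.92% of all genes were past the fold. With CNO 1 of 51 was higher, the heparan sulfate-bearing collagen Col18a1 (1.44 and 0.62), where 3.40% of all genes were. In GABAergic neurons Papss2 alone of 51 was past the fold in VPA (0.67, higher), where 9.27% of all genes were. With CNO 4 of 53 were higher there, Col18a1 (1.40 and 0.72), Papss2 (0.53 and 1.10), the chain-elongation relative Extl1 (0.68 and 0.87) and the core protein Agrn (0.53 and 0.50), and 1 was lower, Hpse2 (-0.56 and -1.05), where 4.32% of all genes were past the fold. In astrocyte-like nuclei 5 of 47 were higher and 3 lower in VPA, where 10.4% of all genes were past the fold. The 5 with the largest ratios were Ndst3 (1.24), Unc5d (1.00), Hs3st3a1 (-0.90), Slit2 (0.87) and Unc5c (0.82). The neuronal markers given above for these nuclei were higher in VPA too, and Ndst3 (2.18) and Unc5d (1.31) were also past the fold in oligodendrocyte-like nuclei; the part of neuronal RNA in these ratios was not tested. With CNO 0 of 51 list genes were past the fold in astrocyte-like nuclei, where 4.89% of all genes were.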

How the data were processed

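Filtered UMI counts per gene and nucleus were used as deposited by the authors, made with Cell Ranger 7.0.1 and mm10 per the submitters' processing notes; whether introns or strand were counted is not given in the sources used here. A minimum of 1000 UMIs and a mitochondrial limit of 5% kept 31376 of 32292 nuclei, and 1839 were left out by Scrublet score at 0.8% expected per 1000 nuclei. Counts were clustered with scanpy 1.11.5 and leidenalg 0.10.2 (2000 variable genes, 30 components, 20 neighbours, resolutions 1 and 2, seed 1) under Python 3.11.15 with scipy 1.17.1. Sim1-rich clusters held at least 150 CPM of Sim1, OT-like clusters at least 400 CPM of Oxt, and the Reln-rich one at least 300 CPM of Reln. UMIs were summed per class and library. Ratios have exact conditional binomial intervals and the floor is 3 counts; the ratio step was tested on simulated data. Coordinates come from GENCODE vM21, in which 99.6% of gene IDs matched. All 10 genes are named, with at most the 5 largest of the list genes past the fold per contrast and class. The members and lists were chosen with earlier results of these data known. Alternatives changed UMI, doublet and gene limits, class definitions, scaling and libraries.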

Additional observations from a re-analysis of the deposited data

Results flagged for a closer look

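The Hs3st4 ratio had opposite signs in OT-like nuclei and in some other neurons. In the VPA contrast its log2 ratio was 1.98 in OT-like nuclei and -0.45 in Sim1-rich nuclei, and it was -0.35 in GABAergic nuclei. In the CNO contrast it was -1.61 in OT-like nuclei, in the library nearer the control, and 0.23 in GABAergic nuclei. Each arm except CNO is 1 library, so whether these classes differ in response was not tested. Thalamus-type neurons had the sign of OT-like nuclei with CNO (-0.67 and -0.91) and 0.05 with VPA, and Sim1-rich nuclei had 0.07 and -0.05 with CNO. With gates the OT-like ratio was 0.44 with VPA and 0.40 with CNO, and with the set-aside OT cluster 0.79 and 0.01. The OT-like values rest on 21 UMIs in saline, 65 in VPA, 44 in the control and 0 and 5 in the CNO libraries.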

How the results depend on the processing

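With 1 library in 3 of 4 arms, every interval covers counting error only, and OT-like values of CNO replicate 1 rest on 14 nuclei. No paired analysis was possible because the groups compared share fewer than 2 replicate numbers. Of 85 summary counts under alternatives, 57 stayed within 1.5 times, and of 108 single-gene ratios 80 kept direction and call, 25 fell short of the fold and 3 reversed. Falling short includes ratios of at least 0.5 in size whose interval reached 0, as for Ndst4 within either OT cluster in the VPA contrast. Several alternatives were chosen after seeing the data. The number of genes with 1 leading class in all libraries was 3, and 6 with classes taken by gates or with classes of at least 50 nuclei per library. Past the fold in OT-like nuclei in the VPA contrast were 4 genes, 2 with gates, 2 in the Reln-low cluster and 1 in the Reln-rich cluster. In Sim1-rich nuclei the count was 1, with 2 by gates and 0 with a pseudocount of 10 CPM or equal weight per sub-cluster. In GABAergic nuclei it was 2, with 1 by gates, per-nucleus means or equal weight and 0 with the pseudocount. In astrocyte-like nuclei it was 2, with 1 at 2000 UMIs, with size factors, with the pseudocount or among interferon-low nuclei, and 0 with gates. In the CNO contrast the OT-like count was 2, with 1 by gates, per-nucleus means, no gene minimum, the set-aside cluster or the Reln-low cluster, and 0 in the Reln-rich cluster. Leaving out 1 CNO library asks for 1 ratio in place of 2: the OT-like count was then 3 (without CNO replicate 1) to 4 (without CNO replicate 2), and the Sim1-rich count 0 to 1, the GABAergic count 0 to 4 and the astrocyte-like count 0 to 4, with 4 in these last 2 without CNO replicate 1. Equal weight gave 1 in Sim1-rich nuclei. Reversed were Hs3st5 in the VPA contrast among Reln-rich nuclei (0.01) and Hs3st4 in the CNO contrast with gates (0.40) and with the set-aside cluster (0.01). The causes were not tested. Ratios with a library at 0 UMIs were given no value: Gpc3 in the CNO contrast among Reln-rich nuclei, and Hs3st4 without CNO replicate 2 and among Reln-low nuclei.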
